A study of Danio rerio with 4 samples.

Results

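The 4 genes described here, *mpx*, *lyz*, *npsn* and *srgn*, encode products of neutrophil granules, and they were taken by symbol from a table of 19143 zebrafish genes, in which all 4 have a row. The table was made from whole larvae at 4 dpf (days post fertilization). One group was 2 pools of larvae homozygous for *nlrc3l* st73, a null allele of a NOD-like receptor gene, which had been picked as lacking microglia after neutral red staining. The other group was 2 pools of their siblings, a mixture of heterozygous and wild-type larvae sorted for normal microglia. In each group 1 pool held 10 larvae and the other held 12, and the larvae came from heterozygous intercrosses. No treatment is stated for them apart from the staining, which both groups shared. The staining bath that the paper describes also held PTU, an inhibitor of pigmentation. Neutral red is a dye that microglia take up, so the pools were also selected by microglial state. The paper attributes the absence of microglia to the mutation. Genotypes were verified by a PCR-based assay before the libraries were prepared. RNA-seq served to describe the immune state of the mutants, in a study of whether inflammation driven by macrophages alters locomotion. The value available here for each gene is the authors' mean normalized count over all 4 libraries, mutants and siblings together. It carries no spread between pools, so no SD or n is given. The difference between mutants and siblings was not analysed here.

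Neutrophils are short-lived phagocytes that carry ready-made antimicrobial proteins and proteases in cytoplasmic granules and release them at sites of infection or injury. Most granule proteins are made during maturation of the cell, and in larval zebrafish transcripts of some, *mpx* among them, are used to mark neutrophils. In RNA from a whole larva, more cells of a type and more RNA per cell cannot be told apart.

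Serglycin, the proteoglycan core protein that holds charged proteases and other cargo inside granules, is encoded by *srgn* (ENSDARG00000077069). The authors' mean for *srgn* was 258.8 normalized counts. Serglycin is also made by other blood cells and by endothelium in mammals, so reads of *srgn* need not come from neutrophils. How specific each of the 4 markers is was not tested. Lysozyme C, an enzyme that cuts bacterial cell walls, is encoded by *lyz* (ENSDARG00000057789), for which the authors' mean was 245.7 normalized counts. Nephrosin, a zinc metalloprotease of the astacin family, is encoded by *npsn* (ENSDARG00000010423), with an authors' mean of 239.6 normalized counts. Myeloid-specific peroxidase, the enzyme that turns hydrogen peroxide into antimicrobial oxidants, is encoded by *mpx* (ENSDARG00000019521). The authors' mean for *mpx* was 185.5 normalized counts, the lowest of the 4 genes.

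The 4 values lay close to each other, with the mean of *srgn* 1.39 times that of *mpx*. These are read numbers and were not divided by transcript length, so their order is not an order of transcript abundance. Counting error alone has an SD of 7.34% at the mean of *mpx* and of 6.22% at the mean of *srgn*, for a single library of average size. The values of *lyz* and *npsn* differed by less than the counting SD of 15.7 normalized counts that a single library has at the mean of *lyz*. Counting error is smaller for a mean over 4 libraries, so this SD is not that of the difference. Variation between pools comes on top of this and is not known here.

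The 4 genes together took 929.5 of the 8721330 normalized counts that the means of all genes sum to, or 107 per 1000000. By gene this was 29.7 per 1000000 for *srgn*, 28.2 for *lyz*, 27.5 for *npsn* and 21.3 for *mpx*. All 4 lay above the median of the table, 125.7 normalized counts, and below its upper quartile of 316.9. The table starts at 9.18 normalized counts, so genes with few reads are under-represented in it and the median is that of the listed genes. A lower mean than that of *srgn* was held by 69.9% of listed genes, and a lower mean than that of *mpx* by 61.1%. The interval between *mpx* and *srgn* held 1688 genes in all, or 8.82% of listed genes.

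Neutrophil markers other than the 4 genes described here were read over a wider range. In what follows, granule genes means these 4 only, although products of other listed markers may also be stored in granules. Of a list of 20 neutrophil symbols, the 4 granule genes included, 15 have a row, and *mmp13a* has 2, which gives 16 rows. Their median was 183.1 normalized counts, and the 12 rows other than the granule genes had a median of 142.5. The granule genes are 4 of the 16 rows and gave 25.5% of the 3645 normalized counts of the list, near their proportion of rows. This share of counts and the order of the list hold for the mixture of mutant and sibling libraries. The groups may contribute to this mixture unequally for each gene. The gelatinase gene *mmp9* was the highest of the list, at 943.9 normalized counts as the authors' mean. *mmp9* is also made by other activated cells, so its reads need not come from neutrophils. How specific the other markers of this list are, *mmp13a* and *adam8a* among them, was not tested. At the other end was *scpp8*, at 16.3 normalized counts. Between them *pnp5a* had 610.9, *adam8a* 112.5 and *mmp25b* 26.1 normalized counts. The identifiers of *mmp13a*, a collagenase gene, had 219.0 and 172.5 normalized counts, and the counting could have split reads between them. Within this list, the markers nearest to the granule genes were *lect2l*, at 256.4 beside *srgn*, and *cyba*, at 180.6 beside *mpx*. The gene *cyba* encodes the membrane subunit p22phox of the NADPH oxidase, which makes the superoxide from which the peroxidase substrate arises. The oxidase genes *cybb*, *ncf1* and *ncf4* had authors' means between 45.9 and 73.4 normalized counts. The symbols *cxcr1*, *cxcr2*, *csf3r*, *cebp1* and *illr4* matched no row and were not analysed here. Whether they fell below the lowest listed mean was not tested. The medians of this list and of the lists that follow therefore hold for the rows present only.

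**Figure D1:**
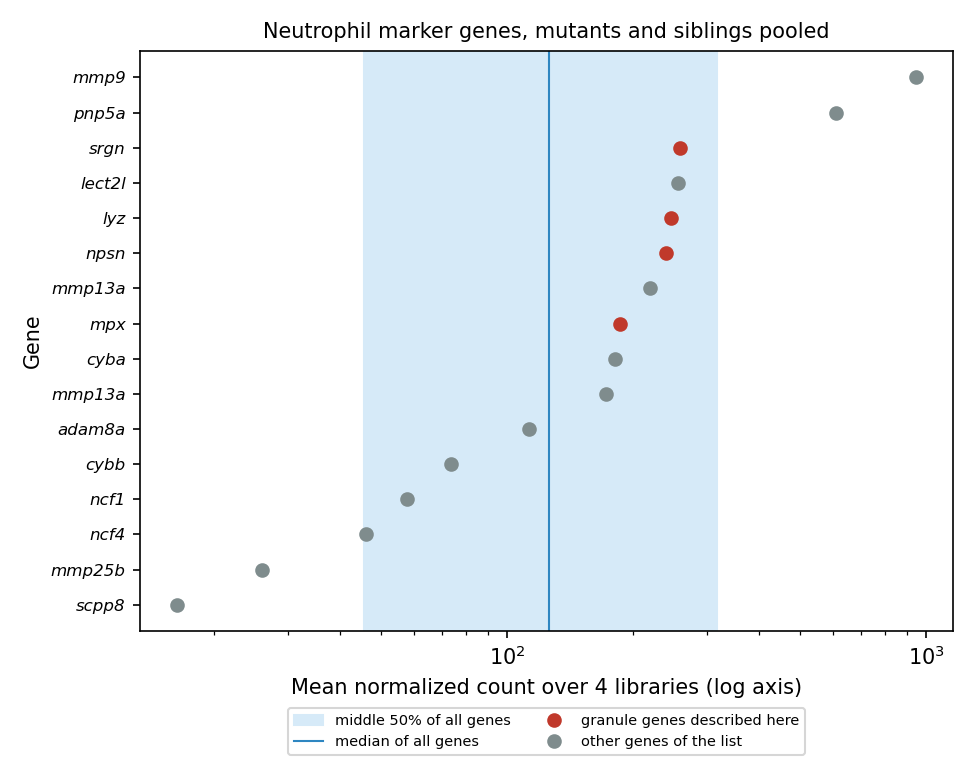
Mean normalized count over the 4 libraries, mutants and siblings pooled (log axis), for each row of the neutrophil list, with the 4 granule genes in red and the other markers in grey. The blue band spans the middle 50% of all listed genes, from 45.5 to 316.9, and the line marks their median; the granule genes lie between 185.5 and 258.8, inside the band and to the right of the line.

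Genes listed as markers of other blood cells were read in the same libraries, although in whole larvae their reads can come from other tissues too. All 10 pan-leukocyte symbols have a row, from *ptprc* at 17.6 to *rac2* at 350.9 normalized counts, with a median of 41.2. Of 23 macrophage and microglia symbols 17 have a row, with a median of 36.5 normalized counts. That list ran from *cd74a*, at 9.83, to the lipoprotein gene *apoeb*, at 7244, which tissues other than macrophages also express. The macrophage gene *mpeg1.2* had 190.9 normalized counts, near the value of *mpx* and well above the median of its list, whereas *mpeg1.1* had 49.4. Of 6 thrombocyte symbols 3 have a row, with *gp1bb*, a platelet receptor subunit gene, lowest at 9.66 and *thbs1b* highest at 2135 normalized counts. Another gene of that list, *fli1a* at 252.0, lay nearest to *lyz* and *npsn* among the marker and family lists, granule genes aside. The 7 erythroid rows ran from *alas2* at 163.6 to the globin gene *hbae3* at 3813. Among them *slc4a1a*, at 181.4, lay nearest to *mpx* of all genes on the marker and family lists. Many genes of the whole table lay closer to these granule genes. The carboxypeptidase gene *cpa5*, used as a mast cell marker, had 1051 normalized counts. The values of *cpa5* and *thbs1b* exceeded that of every pan-leukocyte gene, and which cells their reads came from was not tested. How much of the reads of *srgn* and of the other granule genes came from cells other than neutrophils was not tested.

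Reads of *mpx*, *lyz* and *npsn* could be shared with related genes only where those genes are near copies. Among heme peroxidases, 3 of 7 symbols have a row, and besides *mpx* these are *pxdn*, an extracellular matrix peroxidase, at 55.7 and *epx* at 10.8 normalized counts. The identifier of *mpx* carries the symbol EPX in the gene name table used here, whereas the study's table gives *epx* a separate identifier, ENSDARG00000012535. The name of the peroxidase gene therefore depends on the annotation, and the values here follow the identifier. Among lysozymes, the goose-type gene *lygl1* was the only other gene of the list with a row, at 79.4 normalized counts against 245.7 for *lyz*. Among astacin proteases, 9 of 21 symbols have a row, and *bmp1a*, a procollagen-processing protease, had more reads than *npsn*, at 539.3. The other 7 had between 17.6 and 57.0 normalized counts, the lowest being the hatching enzyme gene *he1.1*.

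**Figure D2:**
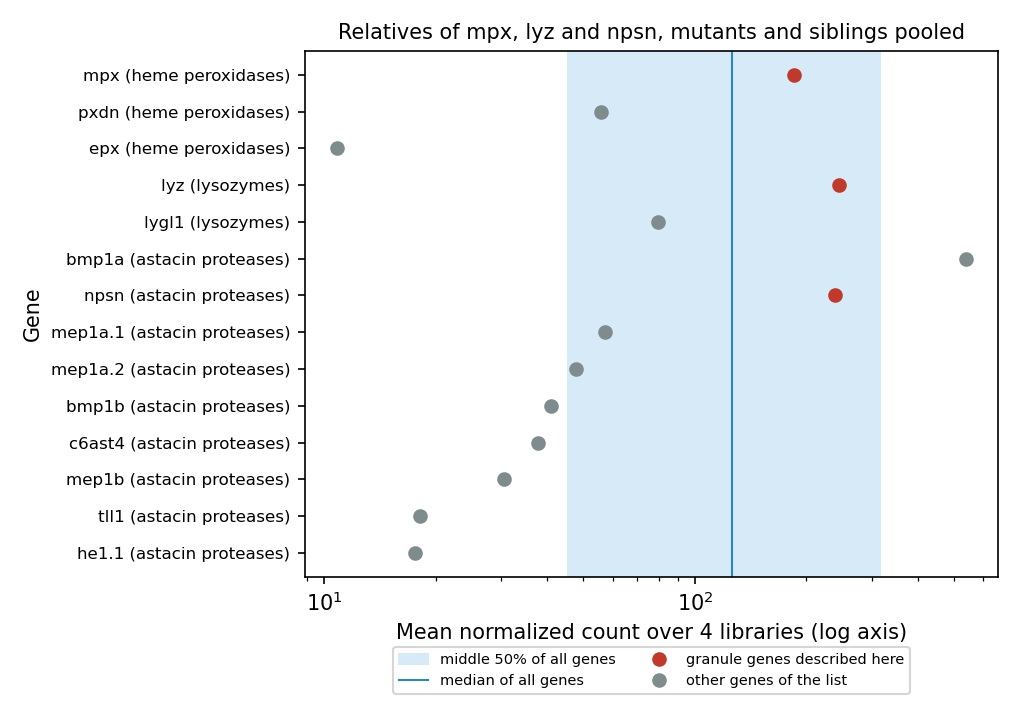
Mean normalized count over the 4 libraries, mutants and siblings pooled (log axis), for the heme peroxidase, lysozyme and astacin protease genes with a row, with *mpx*, *lyz* and *npsn* in red and their relatives in grey. The band and line are the middle 50% and the median of all listed genes; the red points lie at 185.5, 245.7 and 239.6, and the astacin *bmp1a*, at 539.3, is the single relative to their right.

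The granule genes are not neighbours of each other. In the RefSeq annotation of GRCz12tu, used for gene order alone since the study's build was GRCz10, the 4 genes lie on 4 different chromosomes. The gene *npsn* sits within a run of astacin genes, with *c6ast4* and *c6ast3* on one side and *c6ast1* on the other. Of these *c6ast4* has a row, at 37.8 normalized counts against 239.6 for *npsn*, while *c6ast3* and *c6ast1* matched no row and were not analysed here. The genes beside *mpx* are *loxa* and *sftpba*, with 33.1 and 56.0 normalized counts against 185.5 for *mpx*. The genes beside *lyz* are the transporter gene *abcc13*, at 271.4 normalized counts, and on the other side a gene with a clone name only, at 62.6, against 245.7 for *lyz*. Beside *srgn*, *vps26a* had 450.2 normalized counts, and the gene on its other side, *kifbp*, matched no row by its exact symbol. The libraries were made with a strand-specific kit, but whether counting used strand is not given in the sources used here.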

How the data were processed

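RNA-seq had been performed on 4 pools of whole larvae. According to the methods and the submitters' processing notes, paired-end reads were trimmed with Trimmomatic, aligned with HISAT2 and counted per gene with featureCounts (Subread 1.5.2, GRCz10), and DESeq2 was run in R 3.3.1. The signal analysed is the deposited baseMean, in which the authors averaged size-factor-scaled counts of the 4 libraries, without regard to gene length. Depth per library is unknown here. The remaining columns hold the authors' comparison of mutants over siblings (log2 fold change, its standard error, statistic, p-value and adjusted p-value) and were not used, nor was a second table of genes selected by that comparison. No test was therefore made.

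From the means, ranks, sums and shares per 1000000 of the summed means were computed, and the counting SD as the square root of the mean. Members and lists were chosen with earlier results of these data known. Named genes are the 4 members, the highest and lowest gene of each list, and the list genes nearest to a member. The other neutrophil, peroxidase, lysozyme and astacin genes, *mpeg1.1*, *mpeg1.2* and the neighbouring genes were named after their values were seen. *thbs1b* and *cpa5* fall under the rule, but they were set against the pan-leukocyte genes after their values were seen. The rule ordered lists by coding length, for which no reference was at hand, so read numbers were used, and protein features were left out. One further gene written on the neutrophil list is not reported here and is not among its 20 symbols. List symbols were matched exactly, or through RefSeq synonyms where no row matched. Members and neighbouring genes were matched by exact symbol only. The ranking step was checked on simulated data. Alternatives were a minimum of 50 normalized counts and a total without the 100 highest genes. Computing was done in Python 3.11.15 (pandas 2.3.3, numpy 2.4.6, scipy 1.17.1), and plots were drawn in matplotlib 3.10.9.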

Additional observations from a re-analysis of the deposited data

How the results depend on the processing

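Among the 13955 genes with a mean of 50 or more normalized counts, the share of genes with a lower mean was 58.7% for *srgn*, 56.6% for *lyz*, 55.6% for *npsn* and 46.7% for *mpx*, so that *mpx* lay below the middle of those genes and above the middle of all listed genes. With the 100 highest genes left out of the total, the normalized counts per 1000000 were 40.9 for *srgn*, 38.8 for *lyz*, 37.8 for *npsn* and 29.3 for *mpx*, by construction higher than with all genes. With the minimum of 50 on the total instead, the value of *srgn* was 30.1 per 1000000 against 29.7 with all genes. The 4 values stayed within their 95% Wilson intervals, which cover counting error only and treat each mean as a single count. This too follows by construction, because the genes left out hold little of the total. The 4 shares without the 100 highest genes lay outside these intervals. The 4 percentages among genes with a mean of 50 or more lay outside the 95% Wilson intervals of the percentages for all listed genes. They had to fall, because every gene left out has a lower mean than each of the 4 genes. These intervals treat the listed genes as independent draws, so no conclusion is drawn from them. Values per coding length and alternatives of a comparison between mutants and siblings were not run. No paired analysis was possible because the column used is 1 mean over all libraries, and leaving out a pool could not be tried for the same reason.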
